A study of Mus musculus with 36 samples.

Results

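The 28 genes described here encode the enzymes of cholesterol synthesis, the proteins that regulate them and proteins that move or store cholesterol inside the cell. They were chosen by gene symbol from a fixed list of the mevalonate pathway, the sterol enzymes, the control of the transcription factor SREBP2 and cholesterol uptake and handling, and all 28 were found among the 53465 genes counted and were among the 16988 genes with enough counts to be tested. RNA was sequenced from RAW 264.7 cells, a transformed mouse macrophage-like line labelled wild type, in 36 libraries that form 12 groups of 3. One group received solvent, and one received lipopolysaccharide (LPS, a bacterial outer-membrane component that activates macrophages) at 10 µg/mL. The next 5 groups received melatonin, the pineal hormone, at 0.1, 1, 10 or 100 µM or at 1 mM without LPS, and the last 5 received melatonin at those doses for 30 min before LPS at 10 µg/mL was added. Cells were collected after 12 h. All groups are this 1 cell line in culture, and the comparisons ask how LPS, melatonin and their combination act on it.

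Cells make cholesterol from acetyl-CoA. The early enzymes build mevalonate and convert it to isoprenoid units, a branch leads from there to the prenyl groups of proteins, and squalene is then closed to a ring and trimmed to cholesterol. SREBP2, the product of Srebf2, switches on most genes of the pathway when the endoplasmic reticulum runs low in sterol: SCAP then carries it to the Golgi for cleavage, and the INSIG proteins hold it back when sterol is plentiful. Cholesterol that enters by endocytosis leaves the lysosome through NPC2 and NPC1, STARD4 carries sterol between membranes, and SOAT1 esterifies the surplus for storage in lipid droplets, which is the process behind the foam cell.

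SREBP2 acts through sterol regulatory elements near the start of its target genes, usually beside a site for the factor NF-Y. In the RefSeq promoter table (GRCm38.p6), 23 of the 28 genes had an entry, and Fdps, Fdft1, Sqle, Stard4 and Npc1 did not. The 250 bases before each start were searched on both strands for the sterol regulatory element TCACNCCAC and for the NF-Y motif CCAAT, with no overlap between the motifs in the windows shown. The sterol element occurred in 1 of the 23 genes, Hmgcs1, and in 1.23% of all 27025 genes in the table. CCAAT or its reverse complement occurred in 20 of the 23 genes (87.0%), against 37.5% of all genes. Among genes that LPS lowered (below), 8 of 10 held CCAAT, and 12 of the other 13 did. A gene with more than 1 listed start counted if any of its windows matched. By window the counts were 8 of 10 and 12 of 19. A match describes letters only. Only exact matches in these 250 bases were counted, so a gene without one may still hold a site. The windows of 3 genes with lower counts under LPS and of Insig2, a regulator that did not pass the test there, are shown because they hold no annotated exon. For Insig2 the most upstream of its listed starts was used, and the windows of its other starts held neither motif. Capitals mark the motifs, which is CCAAT or ATTGG in all cases but the 9-base element TCACCCCAC of Hmgcs1, whose first base lies 137 bases before the start. They are chr13:119690101-119690350 (plus strand) for Hmgcs1, chr8:122443423-122443672 (minus) for Mvd, chrX:8193513-8193762 (minus) for Ebp and chr1:121332590-121332839 (minus) for Insig2, each written 5′ to 3′ along the gene.
Hmgcs1: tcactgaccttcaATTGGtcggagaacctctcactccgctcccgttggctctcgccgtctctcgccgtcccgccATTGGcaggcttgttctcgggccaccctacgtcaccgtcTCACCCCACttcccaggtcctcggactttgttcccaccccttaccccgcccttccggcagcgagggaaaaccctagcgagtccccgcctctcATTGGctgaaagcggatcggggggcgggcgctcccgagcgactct
Mvd: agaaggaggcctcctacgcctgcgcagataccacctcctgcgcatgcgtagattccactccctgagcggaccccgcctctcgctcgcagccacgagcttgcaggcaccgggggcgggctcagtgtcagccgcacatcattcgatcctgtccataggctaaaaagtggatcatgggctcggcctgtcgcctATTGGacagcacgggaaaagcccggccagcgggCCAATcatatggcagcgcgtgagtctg
Ebp: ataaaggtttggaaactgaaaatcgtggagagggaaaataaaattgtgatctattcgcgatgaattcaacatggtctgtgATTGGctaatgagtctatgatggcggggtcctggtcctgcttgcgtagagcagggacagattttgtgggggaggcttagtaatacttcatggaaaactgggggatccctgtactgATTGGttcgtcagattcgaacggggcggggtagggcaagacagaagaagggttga
Insig2: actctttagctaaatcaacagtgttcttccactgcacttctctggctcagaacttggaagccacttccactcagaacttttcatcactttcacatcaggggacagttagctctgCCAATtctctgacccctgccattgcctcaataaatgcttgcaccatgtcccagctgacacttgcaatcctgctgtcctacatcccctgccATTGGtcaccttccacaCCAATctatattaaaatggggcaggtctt

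Between 4203313 and 7590271 reads were counted per library. All 10 macrophage markers examined, among them Csf1r and Lyz2, were detected in every library, with Adgre1 the lowest in solvent at a mean of 9.87 CPM. The summed markers of T cells, B cells, epithelium, endothelium and fibroblasts reached at most 9.37 CPM in a library, and those of hepatocytes 19.3 CPM, of which Alb gave up to 18.5 and was at 0 in 21 libraries. Replicates within each group differed by more than counting noise, so no library was counted as a duplicate. The largest such difference was that of replicate 3 of LPS with 1 mM melatonin. Its chi-square per degree of freedom was 37.7 and 37.1 against replicates 1 and 2, which had 14.4 between them. A score over 271 genes that marks 1 mM melatonin, computed only for the libraries without LPS, set 2 libraries apart. Of the 3 libraries of 1 mM melatonin alone, replicates 1 and 2 scored 16.9% and 11.7% and replicate 3 scored 5.92%. Of the 3 libraries of 1 µM melatonin alone, replicate 1 scored 18.9%, and replicates 2 and 3 scored -0.388% and 0.310%. The macrophage markers split the same libraries: Lyz2 was at 1512 and 1470.0 CPM in replicates 1 and 2 labelled 1 mM and at 1341 in replicate 1 labelled 1 µM, but at 5865 in replicate 3 labelled 1 mM and at 6325 and 6420.2 in replicates 2 and 3 labelled 1 µM. In both values replicate 1 labelled 1 µM lay near replicates 1 and 2 labelled 1 mM. The Lyz2 level of replicate 3 labelled 1 mM was nearer to replicates 2 and 3 labelled 1 µM than to its own group. Its score and its Lyz2 level also lay within the ranges of 10 µM melatonin alone (5.70 to 7.39% and 5633 to 5923 CPM). Whether the labels of these 2 libraries were exchanged was not tested, so the labels were kept. Results that involve 1 mM or 1 µM melatonin alone are given with and without replicate 3 of the former and replicate 1 of the latter where a call depends on them. All libraries are bulk RNA, in which fewer cells of a kind and less RNA per cell cannot be told apart.

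The 28 genes together took 0.360 to 0.365% of all counts in the solvent libraries and 0.265 to 0.270% in the LPS libraries. Per length, in FPKM, which divides fragments by gene length and depth, the level of Acat2 was the highest in solvent at 129 ± 12.0 (SD, n = 3), followed by Msmo1 at 71.7 ± 6.72 and Ebp at 62.4 ± 9.57. Acat2 encodes the cytosolic thiolase that starts the pathway, Msmo1 the sterol C4-methyl oxidase and Ebp the sterol isomerase. The lowest levels were those of Scap at 2.28 ± 1.08, Fdps at 1.79 ± 1.56 and Tm7sf2 at 1.67 ± 1.74 FPKM. Ordered by level, neighbours stood clear of each other's replicate range only between Acat2 and Msmo1, Stard4 and Npc2, Mvk and Aacs, and Ggps1 and Scap. Every other pair of neighbours overlapped. Counts of a few genes may be shared with others: Acat2 has a near-identical copy (Acat3), 26.7% of the exonic bases of Fdps lie in Gm43738, and 18.3% of those of Fdft1 lie opposite Ctsb, which cannot be told apart without the strand setting. Gm43738 itself had 11 counts over all libraries. Processed pseudogenes took 19.5 to 21.5% of the counts per library. Whether reads of the 28 genes, such as those of Fdps, were counted there was not tested, so low levels may be underestimates.

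**Figure D1:**
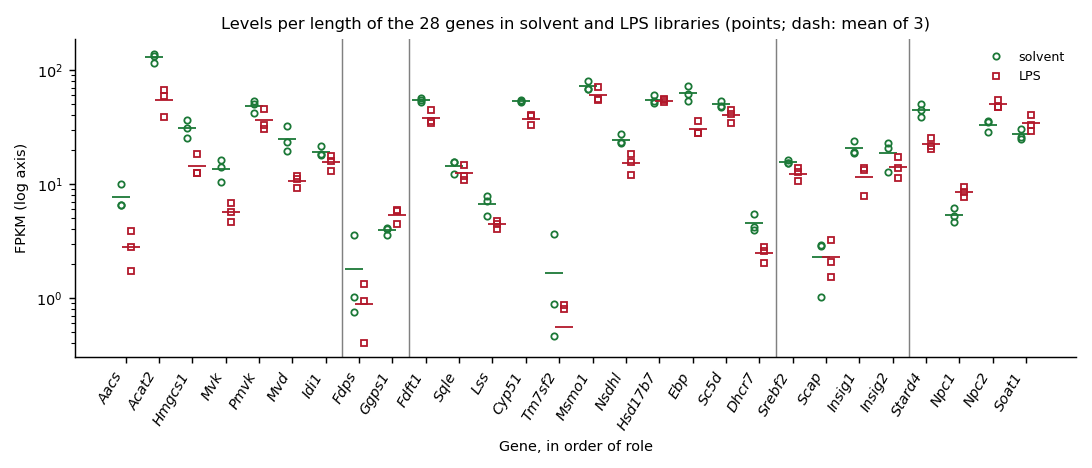
Level per length (FPKM, log axis) of the 28 genes, grouped by role, in the 3 solvent and 3 LPS libraries (points) with the mean of each group (dash). The levels run from 1.67 FPKM (Tm7sf2) to 129 FPKM (Acat2) in solvent; 1 LPS library has 0 counts of Tm7sf2 and is not on the log axis.

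LPS lowered much of the pathway. Against solvent, 12 of the 28 genes fell and 2 rose, against 16.5% of all genes tested (8.09% lower and 8.39% higher). Those that fell were 5 enzymes of the mevalonate steps, 5 of the sterol steps, the sterol sensor gene Insig1 and the sterol carrier gene Stard4, and those that rose were the lysosomal pair Npc1 and Npc2. The median log2 fold change was -0.50 over the list and -0.02 over all genes, and 23 of the 28 values were below 0. The 3 LPS libraries lay entirely below the 3 solvent libraries for 16 genes and entirely above for 3, where 15.6% and 15.7% of all genes did so. Differences are log2 fold changes ± SE from edgeR's quasi-likelihood test with Benjamini-Hochberg adjustment over all genes tested, called at an adjusted p under 0.05, and levels are in CPM, counts scaled to the depth of the library, which compare libraries for 1 gene but not genes with each other.

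**Figure D2:**
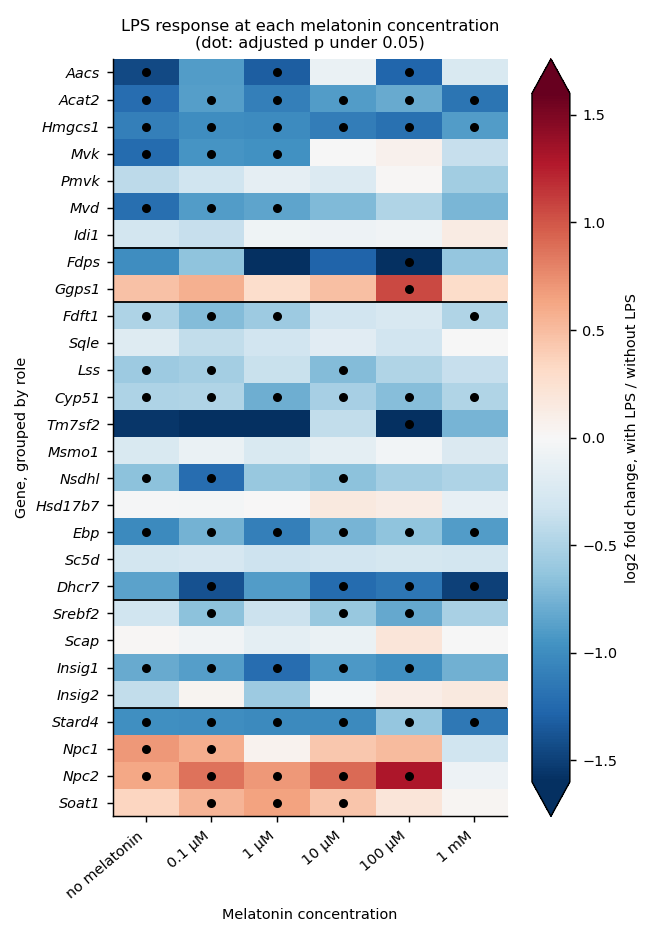
Log2 fold change of LPS over no LPS for each of the 28 genes (rows, grouped by role) without melatonin and at each of 5 melatonin doses (columns), with a dot where the adjusted p is under 0.05. Blue runs through most of the enzyme rows, and 5 rows (Acat2, Hmgcs1, Cyp51, Ebp and Stard4) carry a dot in all 6 columns.

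Of the 7 genes of the mevalonate steps, 5 fell. Aacs, which activates ketone bodies for lipid synthesis, measured 25.6, 38.9 and 25.7 CPM in the solvent libraries and 11.1, 15.3 and 6.78 in the LPS libraries. Acat2 measured 342, 299 and 357 CPM in solvent and 155, 100.2 and 173 with LPS. In both genes every LPS library was below every solvent library, with log2 fold changes of -1.44 ± 0.34 (adjusted p = 0.00150) and -1.22 ± 0.17 (adjusted p = 3.43e-07). Hmgcs1, the HMG-CoA synthase, whose window above holds the sterol element, measured 169, 146 and 118 CPM in solvent and 58.6, 58.7 and 85.9 with LPS. It fell by 1.09 ± 0.18 on the log2 scale (adjusted p = 9.89e-06), and the groups did not overlap. Mvk, the mevalonate kinase, went from 38.0, 28.5 and 43.8 CPM to 18.8, 12.6 and 15.7. Mvd, the decarboxylase that makes isopentenyl pyrophosphate, went from 60.1, 37.2 and 44.0 CPM to 17.6, 22.4 and 20.9. Both fell without overlap, by 1.23 ± 0.31 (adjusted p = 0.00342) and by 1.21 ± 0.30 (adjusted p = 0.00249). All 5 calls held in every alternative run, each left-out library included. Pmvk, the phosphomevalonate kinase, and Idi1, the isopentenyl isomerase, did not pass, with -0.41 ± 0.21 (adjusted p = 0.181) and -0.29 ± 0.20 (adjusted p = 0.377).

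Neither gene of the isoprenoid branch passed. Ggps1, the geranylgeranyl synthase, measured 19.3, 17.3 and 19.6 CPM in solvent and 28.6, 27.8 and 21.6 with LPS, and although the groups did not overlap its difference of 0.47 ± 0.32 missed the threshold (adjusted p = 0.365). Fdps, the farnesyl synthase, spread from 3.22 to 15.3 CPM over the solvent libraries alone, and its -0.99 ± 0.74 carries little information.

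Of the 11 genes of the sterol steps, 5 fell. Fdft1, the squalene synthase, measured 240.5, 226 and 235 CPM in solvent and 149.6, 153 and 194 with LPS. Lss, which closes the ring, measured 77.7, 86.3 and 57.0 and then 45.0, 49.1 and 53.0. Cyp51, the lanosterol demethylase, measured 237, 247 and 234 and then 148, 181 and 179. None of the 3 overlapped between groups, and their log2 fold changes were -0.50 ± 0.15 (adjusted p = 0.0166), -0.59 ± 0.18 (0.0211) and -0.50 ± 0.13 (0.00593). Nsdhl, which removes the C4 carboxyl group, measured 67.0, 79.2 and 66.4 CPM in solvent and 53.6, 34.9 and 45.9 with LPS. Ebp measured 169, 146 and 124 and then 66.8, 66.1 and 84.6. They fell by 0.66 ± 0.23 (adjusted p = 0.0386) and by 1.01 ± 0.19 (adjusted p = 9.73e-05), again with no overlap. Ebp held its call in every alternative.

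The other 4 of these sterol-step calls rest in part on single libraries. The adjusted p of Cyp51 was 0.0754 without LPS replicate 1. That of Fdft1 was 0.0529 without solvent replicate 1, 0.109 without LPS replicate 1 and 0.095 without LPS replicate 2. Lss was at 0.0754 and 0.160 without solvent replicates 1 and 2, at 0.105 and 0.0652 without LPS replicates 1 and 2, and at 0.0939 with no filter on low counts. Nsdhl was at 0.0585, 0.150 and 0.0566 without solvent replicates 1, 2 and 3, and at 0.221 and 0.0845 without LPS replicates 2 and 3.

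The other 6 genes of the sterol steps did not pass. Sqle, the squalene epoxidase and a control point of the pathway, measured 87.2, 69.2 and 87.8 CPM in solvent and 67.0, 82.6 and 61.3 with LPS, so the groups overlapped, and its difference was -0.21 ± 0.21 (adjusted p = 0.569). Msmo1 was at -0.24 ± 0.13 and Sc5d, the C5 desaturase, at -0.30 ± 0.14. Dhcr7, the last reductase, was at -0.86 ± 0.34 with an adjusted p of 0.0828, and its 3 LPS libraries (12.2 to 16.6 CPM) were below the 3 solvent libraries (23.2 to 31.9 CPM). Hsd17b7, the 3-keto reductase, was at -0.02 ± 0.13. Tm7sf2, a C14 reductase near the floor of detection, was at 12.9, 3.14 and 1.65 CPM in solvent and at 2.88, 0 and 3.08 with LPS. A count of 0 allows up to 0.414 CPM in that library before TMM scaling.

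Among the regulators, the INSIG1 gene fell and the gene of the transcription factor itself did not pass. Insig1, which is itself a target of SREBP2, measured 58.9, 60.2 and 75.1 CPM in solvent and 25.0, 42.0 and 43.6 with LPS. The groups did not overlap and the difference was -0.81 ± 0.27 (adjusted p = 0.0303), but it was lost without solvent replicate 3 (0.135) or LPS replicate 1 (0.217). Srebf2 measured 81.6, 77.0 and 76.9 CPM in solvent and 65.2, 69.9 and 54.2 with LPS. Every LPS library was lower, yet its difference of -0.31 ± 0.19 did not pass (adjusted p = 0.293). Scap measured 21.7, 22.1 and 7.78 CPM and then 15.9, 24.7 and 11.7, and Insig2 72.1, 80.8 and 44.7 and then 60.9, 49.4 and 40.4. Both overlapped between groups.

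The handling genes split. Stard4 measured 254, 286 and 218 CPM in solvent and 115, 146 and 123.2 with LPS, a fall of 0.98 ± 0.18 on the log2 scale (adjusted p = 7.45e-05) that held in every alternative. Npc1, the membrane protein that exports cholesterol from the lysosome, measured 50.1, 66.8 and 57.2 CPM and then 84.5, 94.4 and 103. Npc2, its soluble partner, measured 191, 197 and 157 and then 302, 266 and 265. Both rose without overlap, Npc1 by 0.70 ± 0.20 (adjusted p = 0.00913) and Npc2 by 0.62 ± 0.14 (adjusted p = 0.00116). The call of Npc2 held in every alternative, while that of Npc1 was lost without solvent replicate 1 (0.0752) or LPS replicate 3 (0.0519). Soat1 measured 248, 259 and 304 CPM in solvent and 294, 405 and 329 with LPS, which overlap, and its 0.34 ± 0.14 did not pass (adjusted p = 0.105).

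The response to LPS was measured 5 more times, at each melatonin dose, between the group with LPS and melatonin and the group with the same melatonin alone. These comparisons share no library with each other or with the comparison above. At 0.1 µM, 13 of the 28 genes were lower and 3 higher, against 15.7% of all genes (7.71% lower, 7.95% higher). At 1 µM it was 10 and 2, against 15.4% (7.40% lower, 7.98% higher). At 10 µM it was again 10 and 2, against 16.1% (7.65% lower, 8.44% higher), and at 100 µM 11 and 2, against 16.8% (7.72% lower, 9.06% higher). At 1 mM, 7 were lower and none higher, against 9.62% (4.75% lower, 4.87% higher). Acat2, Hmgcs1, Cyp51, Ebp and Stard4 were lower in 6 of 6 comparisons, 5 of the 28 genes against 2.08% of all genes. The same 5 were the ones whose 18 libraries with LPS all lay below the 18 without, where 1.74% of all genes did so.

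**Figure D3:**
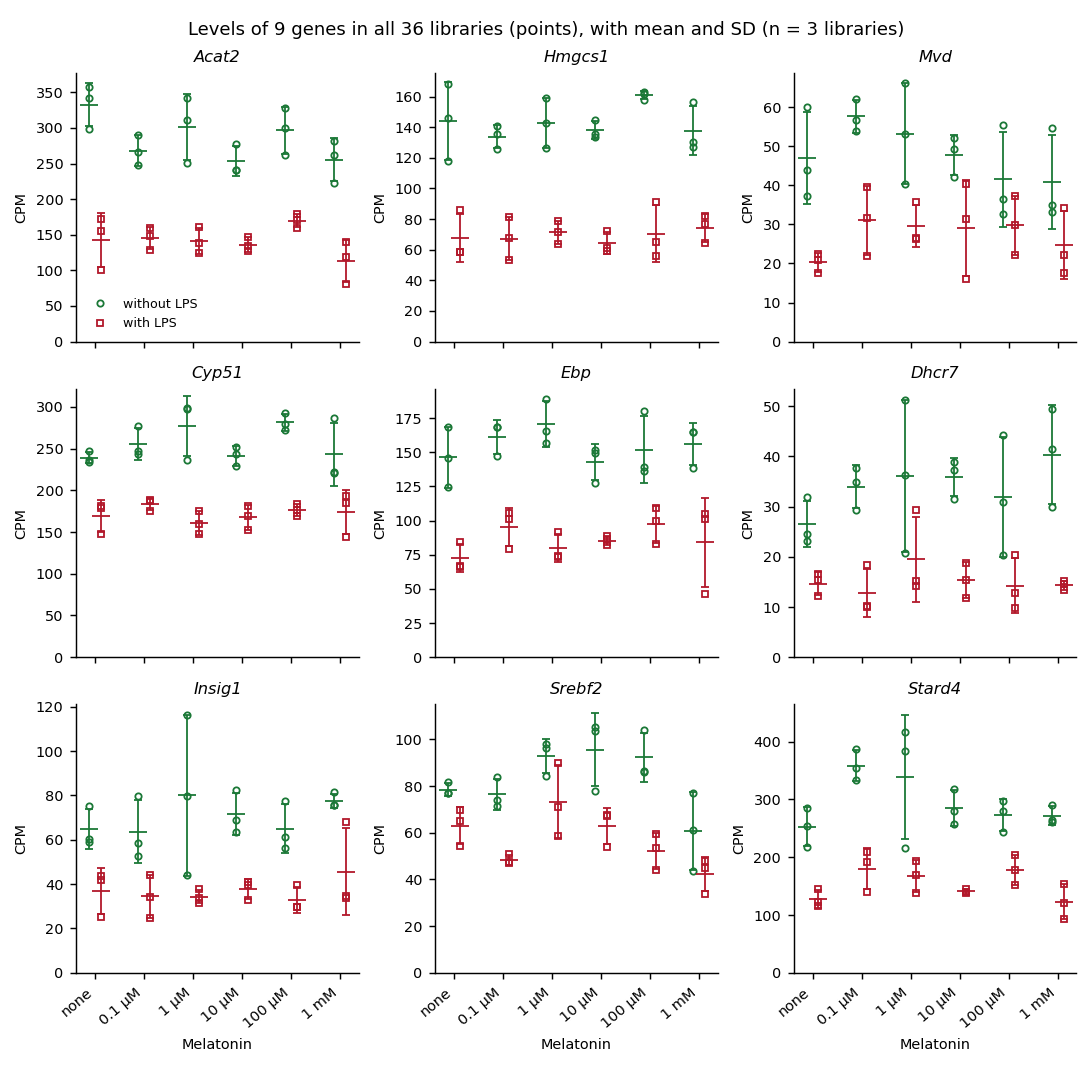
Level (CPM) of 9 genes in all 36 libraries by melatonin dose, without LPS (green circles) and with LPS (red squares), with the mean and SD of each group (n = 3). In Acat2, Hmgcs1, Cyp51, Ebp and Stard4 every red square lies below every green circle, whereas in Srebf2 and Mvd the colours overlap across doses.

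The levels of those 5 genes are given over the 18 libraries with LPS and the 18 without. Acat2 spanned 222 to 357 CPM without LPS (median 280.0) and 80.9 to 179 with it (median 143). Hmgcs1 spanned 118 to 169 CPM without LPS (median 142) and 53.5 to 91.0 with it (median 66.1). Their log2 fold changes ran from -1.22 to -0.81 and from -1.19 to -0.89 over the 6 comparisons, and each passed in all 6 under every alternative run. Ebp spanned 124 to 189 CPM against 46.4 to 109.5, Cyp51 221 to 299 against 144 to 193, and Stard4 216 to 417 against 93.7 to 209. In all 5 genes the highest library with LPS stayed under the lowest library without it. Without melatonin replicate 2, Ebp no longer passed at 100 µM (adjusted p = 0.113), nor did it without LPS-melatonin replicate 3 (0.0967), nor at 1 mM in a fit of those 2 groups alone (0.114). The call of Stard4 at 100 µM was lost without the same 2 libraries (0.0593 and 0.0909). That of Cyp51 was lost at 0.1 µM without melatonin replicate 3 (0.0676), and at 1 mM without melatonin replicate 3 (0.152), which stands apart, or LPS-melatonin replicate 3 (0.105), and it was at 0.111 there without the 2 libraries that stand apart.

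Other members responded in fewer of the 6 comparisons. Insig1 was lower in 5, at -1.22 to -0.77, and its value at 1 mM was -0.77 ± 0.27 (adjusted p = 0.0605). Its calls at 0.1 µM were lost without melatonin replicate 2 (0.145) or LPS-melatonin replicates 1 (0.133) or 3 (0.0503). Those at 10 µM were lost without melatonin replicate 2 (0.0687) or LPS-melatonin replicate 1 (0.0736), and that at 100 µM without melatonin replicate 2 (0.0547). Dhcr7, which narrowly missed without melatonin, was lower in 4, at -1.49 ± 0.34 in 1 mM, -1.16 ± 0.34 in 100 µM, -1.23 ± 0.34 in 10 µM and -1.40 ± 0.34 in 0.1 µM. It was lost at 10 µM without LPS-melatonin replicate 1 (0.0691) and at 100 µM without melatonin replicate 2 (0.145) or LPS-melatonin replicates 2 (0.107) or 3 (0.0650). Fdft1 was lower in 4 as well, at 0.1 µM, 1 µM, 1 mM and without melatonin. It was lost at 1 µM without melatonin replicate 2 (0.0596), and at 1 mM without melatonin replicate 3 (0.291) or any of the LPS-melatonin replicates (0.0611 to 0.0816), and it was at 0.1996 there without the 2 libraries that stand apart.

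Srebf2 passed in 3 comparisons, although not in that without melatonin. It was at -0.66 ± 0.19 with 0.1 µM, -0.60 ± 0.19 with 10 µM and -0.82 ± 0.19 with 100 µM, and its values were below 0 in all 6. At 100 µM the melatonin libraries measured 104, 86.2 and 86.3 CPM and the LPS-melatonin libraries 43.9, 53.4 and 59.4, with no overlap. The call at 100 µM held without each library in turn. At 10 µM it was lost without melatonin replicates 1 (0.113) or 3 (0.103) or LPS-melatonin replicate 1 (0.145), and at 0.1 µM without melatonin replicate 2 (0.0726). Aacs, Mvk, Mvd, Lss and Nsdhl also passed in 3 each. Aacs and Mvk differed most between comparisons, from -1.44 to -0.10 and from -1.23 to 0.07, and whether their responses differ was not tested between doses below 1 mM.

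For the genes that passed in 3 or fewer of the 6 comparisons, most calls at a melatonin dose depended on single libraries. At 0.1 µM, Lss (0.0547 to 0.118) and Npc1 (0.0623 to 0.151) were lost without any 1 of the 6 libraries. Mvd was lost there without any melatonin replicate or LPS-melatonin replicates 2 or 3 (0.0521 to 0.191), and Mvk without melatonin replicate 1 (0.267) or LPS-melatonin replicates 1 (0.0937) or 2 (0.0991). At 1 µM, Mvk was lost without melatonin replicates 2 or 3 or LPS-melatonin replicates 1 or 3 (0.0940 to 0.137). Mvd was lost there without melatonin replicates 1 or 3 or LPS-melatonin replicates 1 or 3 (0.0847 to 0.197), the first of which stands apart. At 10 µM, Nsdhl was lost without melatonin replicates 2 or 3 or LPS-melatonin replicates 1 or 2 (0.113 to 0.203). At 100 µM, Aacs was lost without melatonin replicate 2 (0.0726) or LPS-melatonin replicate 2 (0.0674). Fdps at -2.50 ± 0.79, Tm7sf2 at -2.46 ± 0.79 and Ggps1 at 1.05 ± 0.32 passed at 100 µM alone, and each was lost there without 1 of 3 or more libraries (0.0552 to 0.139): for Fdps melatonin replicate 3 and LPS-melatonin replicates 1 and 2, for Ggps1 melatonin replicates 1 and 2 and LPS-melatonin replicate 1, and for Tm7sf2 melatonin replicates 2 and 3 and LPS-melatonin replicates 1 and 2. Lss at 10 µM, Nsdhl at 0.1 µM and Aacs at 1 µM held without each library.

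Calls were also gained without single libraries. At 1 mM, Insig1 (adjusted p = 0.00433) and Mvd (0.0401) passed without LPS-melatonin replicate 3, the library of lowest depth. Pmvk (0.0452) and Srebf2 (0.0207) passed there without melatonin replicate 2, and Pmvk (0.0314) and Sc5d (0.0480) without LPS-melatonin replicate 2. At 100 µM, Npc1 passed without melatonin replicate 2 (0.0303), and at 10 µM, Mvd without LPS-melatonin replicate 1 (0.0354). At 1 µM, Nsdhl passed without melatonin replicate 1, which stands apart (0.00416), Dhcr7 (0.0206) and Insig2 (0.0276) without melatonin replicate 3, and Dhcr7 without LPS-melatonin replicate 1 (0.0158). Without the 2 libraries that stand apart, Nsdhl (0.00331) and Ggps1 (0.0460) passed at 1 µM and Mvd did not (0.0795).

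Of the handling genes, Npc2 rose with LPS in 5 of the 6 comparisons. From the lowest melatonin dose to 100 µM its log2 fold changes were 0.87, 0.69, 0.91 and 1.29, each ± 0.14, and all 5 calls held under every alternative. At 1 mM its value was -0.08 ± 0.14 (adjusted p = 0.836). Soat1 rose at 0.1 µM (0.54 ± 0.14), 1 µM (0.65 ± 0.14) and 10 µM (0.44 ± 0.14). The last call was lost without melatonin replicates 2 (0.0871) or 3 (0.177) or LPS-melatonin replicates 1 (0.0557) or 3 (0.127). Npc1 passed without melatonin and, in the comparison described above as resting on each library, at 0.1 µM. At 10 µM (90.3 to 121 against 58.6 to 88.7 CPM) and 100 µM (101 to 122 against 59.8 to 95.4 CPM) its libraries with LPS also lay above those without, with 0.43 ± 0.20 and 0.50 ± 0.20 that missed the threshold (adjusted p = 0.146 and 0.0730). With all libraries, Pmvk, Idi1, Sqle, Msmo1, Hsd17b7, Sc5d, Scap and Insig2 passed in none of the 6. Of these, Msmo1, with the second-highest level per length in solvent, spanned 421 to 516 CPM without LPS and 292 to 484 with it.

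Melatonin without LPS moved none of the 28 genes past the threshold at any dose, by edgeR or by DESeq2. At an unadjusted p under 0.05 there were 3, 2, 4, 2 and 4 genes from the highest dose to the lowest, a level at which the share of all genes is not given here. Of all genes, 0.418%, 0.0824%, 0.0824%, 0.147% and 0.341% passed the adjusted threshold with edgeR in these comparisons, which share the 3 solvent libraries. The largest values at 1 mM were those of Dhcr7 at 0.60 ± 0.33 and Npc1 at 0.48 ± 0.20. Hmgcs1 measured 127, 130.2 and 156 CPM with 1 mM melatonin, within its solvent range of 118 to 169. The slope over log10 dose passed for none of the 28 genes either, where 0.718% of all genes passed the adjusted threshold. At an unadjusted p under 0.05 it had 6 of the 28, again without a share of all genes at that level. Without the 2 libraries that stand apart, Soat1 was lower at 1 mM (-0.52, adjusted p = 0.0287), and the slope was negative for Fdft1 (-0.13, adjusted p = 0.00957) and Stard4 (-0.15, adjusted p = 0.0184). Stard4 passed there also without replicate 1 of 1 µM melatonin alone (0.0268).

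**Figure D4:**
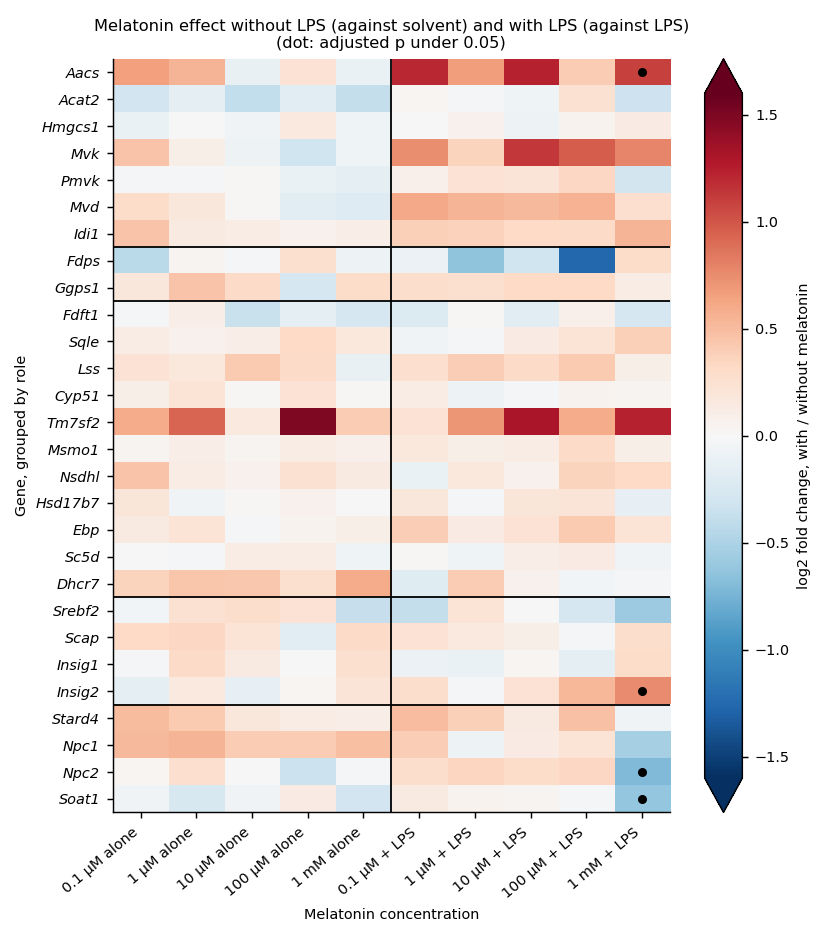
Log2 fold change of each of the 28 genes (rows, grouped by role) for melatonin alone over solvent (5 left columns) and for melatonin with LPS over LPS (5 right columns), with a dot where the adjusted p is under 0.05. The only dots are the 4 in the last column, 1 mM with LPS: Aacs and Insig2 (higher) and Npc2 and Soat1 (lower).

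With LPS present, 1 mM melatonin changed 4 of the 28 genes, 2 higher and 2 lower, against 7.55% of all genes (2.84% higher, 4.71% lower). The comparison shares the 3 LPS libraries with that of LPS against solvent. Aacs measured 14.8, 28.7 and 27.1 CPM with LPS and 1 mM melatonin, against 11.1, 15.3 and 6.78 with LPS alone, and Insig2 measured 91.4, 95.8 and 67.0 against 60.9, 49.4 and 40.4. They rose by 1.09 ± 0.34 (adjusted p = 0.0379) and 0.76 ± 0.22 (adjusted p = 0.0265) on the log2 scale, Insig2 without overlap and Aacs with overlap. Npc2 measured 208, 147 and 155 CPM against 302, 266 and 265, and Soat1 223, 191 and 257 against 294, 405 and 329. Both fell without overlap, Npc2 by 0.71 ± 0.14 (adjusted p = 0.000597) and Soat1 by 0.62 ± 0.14 (adjusted p = 0.00361). With 1 mM melatonin and LPS, both overlapped their solvent ranges of 157 to 197 and 248 to 304 CPM.

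Those 4 calls differ in how they depend on the libraries. That of Npc2 held without each library, and Soat1 was lost without LPS replicate 2 (adjusted p = 0.0605). Aacs was lost without LPS replicates 1 (0.108) or 3 (0.247) or LPS-melatonin replicates 2 (0.165) or 3 (0.131). Insig2 was lost without LPS replicates 2 (0.0818) or 3 (0.174) or LPS-melatonin replicates 1 (0.0846) or 2 (0.115). In a fit of these 6 libraries alone none of the 4 passed, at 0.0642 for Npc2, 0.112 for Soat1, 0.169 for Aacs and 0.1001 for Insig2. The summed level of the 10 macrophage markers was 13311 to 13490 CPM with LPS and 3569 to 4599 CPM with LPS and 1 mM melatonin. There 6 of the 10 lay below every LPS library and none was at 0. Lyz2, the highest of them, had means of 8241 and 1386 CPM. Not all markers fell: the means were 214 and 225 CPM for Cd68, 198 and 227 for Spi1 and 150 and 147 for Tyrobp. The part of the markers in these differences was not tested. LPS-melatonin replicate 3 also had the lowest depth of all libraries and differed most from its replicates. Its Csf1r was at 578 CPM against 1569 and 1507 in replicates 1 and 2, and its Tyrobp at 218 against 114 and 109.

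The enzymes that LPS had lowered did not pass in this comparison apart from Aacs. Hmgcs1 measured 82.2, 64.1 and 76.7 CPM with LPS and 1 mM melatonin against 58.6, 58.7 and 85.9 with LPS, a difference of 0.13 ± 0.18. Stard4 (-0.06 ± 0.18), Cyp51 (0.04 ± 0.13) and Ebp (0.22 ± 0.19) were likewise within the spread. Fdft1 did not pass either, although its libraries were lower without overlap, at 141, 137 and 136 CPM against 149.6, 153 and 194. Srebf2 measured 45.0, 33.9 and 47.8 CPM against 65.2, 69.9 and 54.2. All 3 libraries were lower, and its -0.58 ± 0.19 just missed (adjusted p = 0.0578), passing with DESeq2 (0.0326), with a stricter count filter (0.0427) and among protein-coding genes only (0.0323). Npc1 at -0.53 ± 0.20 (adjusted p = 0.0980) passed without LPS-melatonin replicate 1 (0.0128). Idi1 at 0.54 ± 0.20 passed without LPS-melatonin replicate 2 (0.0128), and Mvk at 0.79 ± 0.31 without LPS-melatonin replicate 3 (0.0393).

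**Figure D5:**
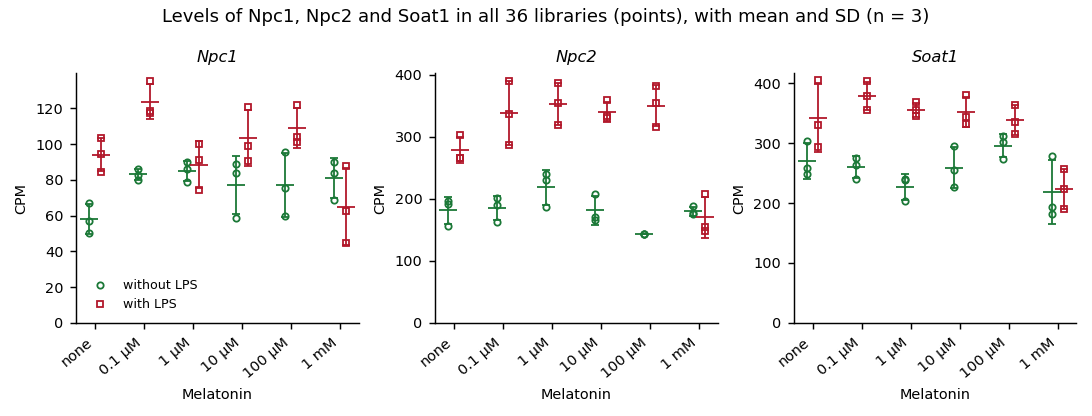
Level (CPM) of Npc1, Npc2 and Soat1 in all 36 libraries by melatonin dose, without LPS (green circles) and with LPS (red squares), with the mean and SD of each group (n = 3). For Npc2 the red squares lie above the green circles from no melatonin to 100 µM and fall among them at 1 mM, where they measure 147 to 208 CPM.

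At the lower doses with LPS, none of the 28 genes passed with edgeR. At 100, 10, 1 and 0.1 µM there were 7, 3, 3 and 6 at an unadjusted p under 0.05. The share of all genes at that level is not given here, so these counts have no background. DESeq2 called 0, 1, 0 and 1 of the 28. At 10 and 0.1 µM it called 84 and 202 of all genes higher and 68 and 226 lower. Of all genes, 1.18%, 0.371%, 0.612% and 1.36% passed the adjusted threshold with edgeR in these comparisons. In the same order, the median log2 fold change was 0.28, 0.13, 0.14 and 0.18 over the list and 0 over all genes. Of the 28 values, 6, 6, 9 and 8 were below 0. The list took 0.288 to 0.322% of counts in these melatonin groups and 0.265 to 0.270% in the LPS libraries. The comparisons share the 3 LPS libraries with each other and with that at 1 mM, so these shifts are not independent. Between the groups with LPS and 1 mM and with LPS and 0.1 µM melatonin, which leaves those libraries out, 3 genes were lower, against 8.11% of all genes (5.28% lower). They were Npc1 at -0.92 ± 0.20 (adjusted p = 0.00125), Npc2 at -0.99 ± 0.14 (adjusted p = 3.01e-06) and Soat1 at -0.76 ± 0.14 (adjusted p = 0.000292). With 0.1 µM and LPS, Npc1 measured 118, 117 and 135 CPM, Npc2 287, 390 and 336, and Soat1 378, 403 and 356. With 1 mM and LPS, Npc1 measured 87.5, 62.7 and 44.8, so none of the 3 genes overlapped. The summed macrophage markers moved with this contrast, at 15273 to 16142 CPM with LPS and 0.1 µM and 3569 to 4599 CPM with LPS and 1 mM. Lyz2, the highest of them, had means of 10279 and 1386 CPM. The means of the other markers were lower at 1 mM too, except those of Spi1 (213 and 227 CPM) and Tyrobp (137 and 147 CPM). The part of these markers in the contrast was not tested. Each of the 3 calls held without each library, and Npc1 was lost in a fit of the 6 libraries alone (0.0526). Stard4 at -0.55 ± 0.18 just missed (adjusted p = 0.0537) and passed without replicate 1 of either group (0.0107 at 1 mM and 0.0209 at 0.1 µM).

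The same 3 genes had a negative slope over log10 dose that passed across the 5 groups with LPS, the only ones of the 28 to pass (7% of all genes passed, 4.63% lower). Per 10-fold higher dose the log2 level changed by -0.15 ± 0.04 for Npc1, -0.20 ± 0.03 for Npc2 and -0.16 ± 0.03 for Soat1. This slope uses the groups of the preceding comparison and is not independent of it. The highest marker sum in each of these groups was 16142, 15112, 14145, 11759 and 4599 CPM from the lowest dose to the highest. Lyz2 alone had means of 10279, 9374.5, 8860, 6460 and 1386 CPM in the same order. As above, Spi1 and Tyrobp were not lower at the highest dose than at the lowest. The part of the markers in the slope was not tested either. The slope of Npc1 was lost without LPS-melatonin replicates 2 (0.0657) or 3 (0.133) at 1 mM or replicate 3 at 0.1 µM (0.0828). For Npc2 the 4 groups from 0.1 to 100 µM had means of 338 to 353 CPM and the 1 mM group 170.1, with no stepwise decrease at the lower doses. Npc1 showed no stepwise decrease either, with means of 124, 88.5, 103, 109 and 65.0 CPM from 0.1 µM to 1 mM. Without single libraries Insig2 and Stard4 passed as well: Insig2 rose with dose without replicate 3 at 1 mM (adjusted p = 0.0278), replicate 3 at 1 µM (0.0423) or replicate 1 at 0.1 µM (0.0493), and Stard4 fell without replicate 1 at 1 mM (0.0360).

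Whether the LPS response itself differed at 1 mM was tested as an interaction. It passed for 1 of the 28 genes, Npc1, and for 1.69% of all genes (1.06% with a lower value). LPS changed Npc1 by 0.70 ± 0.20 without melatonin and by -0.31 ± 0.20 with 1 mM, a difference of -1.01 ± 0.28 (adjusted p = 0.0468). With 1 mM melatonin alone Npc1 measured 83.9, 90.2 and 68.8 CPM, a range that overlaps that of the LPS libraries (84.5 to 103), and with both it measured 44.8 to 87.5. The call lies at the threshold: it was lost in 14 of 21 alternatives, where its adjusted p ran from 0.0074 to 0.227, and leaving out any 1 of the 12 libraries ended it (0.0520 to 0.151), except for solvent replicate 2, melatonin replicate 3 and LPS-melatonin replicate 1. Without the 2 libraries that stand apart it was -1.11 (adjusted p = 0.0216). Npc2 at -0.70 ± 0.20 just missed (adjusted p = 0.0630) and passed without LPS-melatonin replicate 1 (0.0139) and without the 2 libraries that stand apart (0.0445), and Soat1 was at -0.31 ± 0.20. For Hmgcs1 (0.20 ± 0.25), Acat2 (0.05 ± 0.24), Cyp51 (0.01 ± 0.19) and Stard4 (-0.16 ± 0.26), whose responses passed on both sides, the interaction did not pass.

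A further 67 genes around the pathway, in 5 lists, were examined the same way, of which 59 could be tested. LPS raised 7 of them and lowered 8, 15 of 59, where 16.5% of all genes passed (8.39% higher and 8.09% lower). Of 11 tested early and accessory enzymes, 2 rose and 3 fell. Por, the reductase that passes electrons to CYP51 and squalene epoxidase, measured 77.6, 65.9 and 57.5 CPM in solvent and 278, 261 and 246 with LPS, a rise of 1.97 ± 0.16 (adjusted p = 5.50e-13). It thus moved opposite to Cyp51. Pgrmc1, a haem-binding partner of such enzymes, rose by 1.03 ± 0.20, whereas Acss2, the acetyl-CoA synthetase (-2.02 ± 0.48), and Lbr, a sterol C14 reductase (-1.01 ± 0.20), fell. All of these held in every alternative.

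Genes of cholesterol export and uptake were among those that fell. Abcg1, the transporter that loads cholesterol onto lipoproteins, measured 204, 183 and 230 CPM in solvent and 76.1, 86.4 and 94.7 with LPS (-1.26 ± 0.16, adjusted p = 3.53e-08). Cyp27a1, the sterol 27-hydroxylase, was lower by -1.52 ± 0.38, and Nr1h3, which encodes the oxysterol receptor LXRα, was higher by 1.71 ± 0.61 (adjusted p = 0.0462) at 1.73 to 18.5 CPM. These are the 3 that passed among 5 tested oxysterol and efflux genes. Nr1h3 was lost without solvent replicates 2 (0.225) or 3 (0.172) or LPS replicates 1 (0.174) or 3 (0.106). Among 18 tested genes of uptake, esters and transport, Scarb1, a lipoprotein receptor, fell from 120, 84.1 and 95.2 to 37.9, 49.4 and 43.4 CPM (-1.19 ± 0.21), Mylip, a ubiquitin ligase for lipoprotein receptors, fell by 0.98 ± 0.29, and the sterol transfer gene Gramd1b rose by 0.64 ± 0.17. Mylip was lost without solvent replicate 2 (0.0919) or LPS replicate 3 (0.0829), and Gramd1b without solvent replicate 1 (0.0621).

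Of 12 tested genes of SREBP processing and enzyme turnover, 2 rose with LPS and none fell. Among them, the ubiquitin ligase gene Rnf145 rose by 1.13 ± 0.30, which held in every alternative. Of 13 genes of isoprenoid use, Nus1, needed to make dolichol, rose by 0.78 ± 0.16, and Fntb, the farnesyltransferase β subunit, fell by 0.91 ± 0.31. Fntb was lost without solvent replicates 1 (0.2004) or 2 (0.0549) or LPS replicates 1 (0.142) or 2 (0.0928).

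With LPS and 1 mM melatonin against LPS, 4 of the 59 rose and 3 fell, where 7.55% of all genes passed (2.84% higher and 4.71% lower). Abcg1 (0.76 ± 0.16) and Cyp27a1 (1.51 ± 0.38) were higher and measured 154, 176 and 104 CPM and 37.5, 22.8 and 19.5 CPM. Acss2 (1.87 ± 0.47) and Vcp, an ATPase of protein extraction from the endoplasmic reticulum (0.75 ± 0.24), were higher too. Lrp1, an endocytic receptor, was lower by -1.27 ± 0.22, at 55.9, 52.2 and 29.3 CPM against 95.0, 122.6 and 116, and Por (-0.66 ± 0.15) and Gramd1b (-0.59 ± 0.17) were lower as well. Lrp1, Abcg1 and Por held without each library. Cyp27a1 was lost without replicate 1 of either group (0.0884 and 0.0788), Gramd1b likewise (0.0929 and 0.209), Acss2 without LPS replicates 1 or 2 or LPS-melatonin replicate 3 (0.0549 to 0.0937), and Vcp without any LPS replicate or LPS-melatonin replicate 3 (0.0547 to 0.547). The interaction passed for Por alone (-1.07 ± 0.22, adjusted p = 0.00361). The comparison shares the LPS libraries with the preceding one, and the macrophage marker sums given above for it apply here too.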

How the data were processed

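Total RNA was sequenced in bulk from TruSeq libraries, per the labels' protocols. The submitters' processing notes name cutadapt, featureCounts and the genome build mm10. Tool versions, the aligner and the strand setting are not given in the sources used here. The deposited count table holds whole-number read counts for 53465 genes, per the file headers, and a second table deposited by the authors gives FPKM, per the file headers, which was used only for levels per length. Of the identifiers, 53274 (99.6%) matched GENCODE M21, and 0 columns lacked a sample. Promoters came from RefSeq (GRCm38.p6).

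Counts were tested with edgeR 4.0.16 (limma 3.58.1, R 4.3.3): filterByExpr, TMM factors, 1 mean per group over all 36 libraries, quasi-likelihood tests, 2-sided p-values adjusted over 16988 genes per contrast, threshold 0.05. CPM uses TMM-scaled library sizes. The totals of 4203313 to 7590271 counts mean that a count of 0 (floor of 3 counts) allows 0.395 to 0.714 CPM, for counting error only. This floor uses the totals without TMM scaling. Alternatives were other scalings, filters, DESeq2 1.42.0, fewer groups or genes, a replicate block and leaving out libraries, of which leaving out the 2 libraries that stand apart was chosen after seeing the data. The score that sets these apart is the slope of a library's difference from the mean of solvent on the contrast of the highest with the lowest melatonin dose under LPS, over 271 genes, in percent. The code was tested on simulated data drawn with less spread between replicates than these libraries have. That test therefore does not measure how many true changes or false calls arise at their spread.

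The members, roles, pathway lists and named genes were chosen with earlier results of these data known. All members are accounted for, with values in every library for those past the threshold in LPS against solvent or LPS with 1 mM melatonin against LPS and for Srebf2, Scap, Insig1, Insig2, Hmgcs1, Sqle, Stard4, Npc1 and Soat1. Up to 4 genes were named per pathway list and contrast, by smallest adjusted p, and sequences of up to 4 members are shown. The result of 1 gene of the pathway lists is not reported here.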

Additional observations from a re-analysis of the deposited data

Results flagged for a closer look

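The response of Npc1 to LPS passed a test of its difference with and without 1 mM melatonin: the difference between the 2 log2 fold changes was -1.01 (adjusted p = 0.0468, edgeR's quasi-likelihood interaction test), and the response without melatonin was 0.70 ± 0.20 and that with 1 mM -0.31 ± 0.20. The call lay at the threshold and was lost in 14 of 21 alternatives, where its adjusted p reached 0.227.

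At 100 µM melatonin, Npc2 was lower in every library without LPS and higher in every library with LPS. Without LPS, its mean with melatonin minus that in solvent was -38.02 CPM, where the 3 libraries measured 143, 144 and 143 CPM against 157 to 197. With LPS, the same difference from LPS alone was 72.05 CPM, at 315 to 381 CPM against 265 to 302. Neither difference passed on its own (adjusted p = 0.799 and 0.314, edgeR), and the difference between them was not tested. The case was picked from a search of all 28 genes at every melatonin dose. No other gene or dose had opposite shifts without overlap. The share of all genes with such a pattern is not given here, so the case has no background and no conclusion is drawn from it.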

How the results depend on the processing

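No direction of a called gene reversed. Of 9009 values recomputed for single genes under the alternatives, 8760 stayed on their side of the threshold, 183 lost it and 66 gained it. The median CPM over the 28 genes in solvent was 77.4 to 78.3 over the scalings, and no scaling moved the median of all genes by over 0.1. The labels do not say that libraries came from separate cultures, so the spread that p-values rest on may be technical, and with 3 per group small differences may be missed.

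Counts of the 28 genes changed as follows, and the cause was not tested. In fits of the compared groups alone, the count with LPS and 1 mM melatonin against LPS was 0 in place of 4, the LPS response at 1 mM 4 in place of 7, the interaction 0 in place of 1, 0.1 µM melatonin alone 1 (Stard4) in place of 0 and LPS with 10 µM 1 (Mvk) in place of 0. DESeq2 gave 1 for LPS with 10 µM (Mvk) and 1 for LPS with 0.1 µM (Aacs), where no filter also gave 1, in place of 0. The interaction count of 1 became 0 with RLE scaling, upper quartile scaling, no filter and the replicate block, and 2 with the stricter filter, DESeq2, protein-coding genes only and without the 2 libraries that stand apart. Leaving these out gave 1 for 1 mM melatonin alone and 2 for the slope without LPS, in place of 0.

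Leaving out single libraries gave 10 to 12 for LPS against solvent, 11 to 12 for the LPS response at 0.1 µM, 10 to 12 at 1 µM, 8 to 11 at 10 µM, 7 to 12 at 100 µM and 5 to 9 at 1 mM. It gave 2 to 4 for LPS with 1 mM against LPS, 3 to 4 for LPS with 1 mM against 0.1 µM, 0 to 2 for the interaction, 2 to 4 for the slope with LPS, 0 to 1 for that without, and 0 in every other comparison.

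The replicate number was also used as a block. It does not pair the libraries: correlations of deviations between libraries of the same number ran from -0.041 to 0.028, and 0 of 17 pairs of groups had all 3 over 0.1. With the replicate block, 14 genes passed for LPS against solvent, 4 for LPS with 1 mM against LPS and 0 for the interaction.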
